A study of Mus musculus with 119 samples.

Results

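The data described here are the response of *Elk1*-/-*Elk4*-/- bone marrow–derived macrophages (BMDMs) to 1 h of LPS. They were chosen by genotype, time, and experiment label: 4 libraries of unstimulated cells and 4 libraries of cells given LPS at 100 ng/ml for 1 h, which makes 8 libraries beside 111 others in the series. All 8 were of the genotype *Elk1*-/-*Elk4*-/- on the strain C57BL/6(NIMR) and belonged to an experiment that held no WT library. The knockout was carried by the unstimulated and the stimulated cells alike, so the comparison of LPS with no LPS is within 1 genotype. The remaining *Elk1*-/-*Elk4*-/- libraries were taken at 0.5 and 2 h (4 at each time) and are given for orientation. For comparison, WT cells (6 libraries unstimulated and 6 at 1 h) and cells of the genotype Map3k8[D270A], in which the kinase TPL-2 is inactive and which are called TPL2 D270A below (6 and 6), came from another experiment on the same strain. BMDMs are macrophages grown from bone marrow in medium conditioned by L cells, and all were kept in low serum overnight before LPS. The ages and sexes of the mice are not stated in the labels, which also do not say whether a replicate number stands for a mouse.

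ELK1, ELK4, and ELK3 are the ternary complex factors (TCFs), ETS-domain proteins that bind DNA together with serum response factor (SRF) next to a CArG box and that are switched on when ERK1/2 phosphorylates them. LPS, a component of the Gram-negative cell wall, is sensed by TLR4, which activates NF-κB and the interferon regulatory factors, and, through the kinase TPL-2, ERK1/2. In macrophages this program raises immediate early genes, then cytokines, chemokines, and inhibitors of the same pathways, many of them within the hour after LPS.

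The unit throughout is the normalised expression on the log2 scale that the authors deposited, and a change is a difference of log2 values. The labels and methods do not name the transformation behind these values, so such a difference may not equal the log2 fold change in reads. A gene was called risen or fallen at an adjusted p below 0.05 (limma, Benjamini-Hochberg) and a change of at least 1, over 11884 genes tested.

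The targeted genes were first compared across genotypes. *Elk1* (chrX:20933395-20950608 in GRCm38) read 6.22, 6.42, 6.59 and 6.22 in the 4 unstimulated *Elk1*-/-*Elk4*-/- libraries, against a lowest, median, and highest value of 9.07, 9.13 and 9.22 in the 6 WT libraries. *Elk4* (chr1:132007577-132026448) read 5.59, 5.88, 5.83 and 5.54, against 7.57, 7.77 and 7.80 in WT. Both genes lay below every WT library in every *Elk1*-/-*Elk4*-/- library, without falling to the floor of the scale, and the table does not show which exons the remaining reads came from. Neither passed the test with LPS: *Elk1* changed by -0.04 ± 0.05 (SE, adjusted p = 0.638) and *Elk4* by 0.05 ± 0.08 (SE, adjusted p = 0.709).

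The other partners of the complex were still expressed. *Elk3*, the third TCF, read 10.39, 10.41, 10.35 and 10.39 without LPS and 10.48, 10.48, 10.51 and 10.49 at 1 h, a change of 0.10 ± 0.04 (SE, adjusted p = 0.0163), which was below the limit of 1. *Srf* (chr17:46546838-46558267), which encodes the DNA-binding partner of the TCFs, read 10.03, 10.01, 10.04 and 9.92 and then 10.35, 10.39, 10.35 and 10.35. All 4 libraries with LPS lay above the 4 without, and the change of 0.36 ± 0.05 (SE, adjusted p = 9.24e-08) was below the limit of 1. The coactivators of SRF that sense actin, *Mkl1* and *Mkl2*, had changes of 0.02 and -0.06, with adjusted p of 0.89 and 0.621.

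Because the missing proteins act at CArG boxes, the RefSeq promoters (GRCm38.p6; 250 bases before and 50 after each annotated start) were searched on both strands for the CArG box. It was present in 4 of 260 risen genes with a promoter entry (1.54%), in 141 of 9520 genes tested with an entry (1.48%), and in 488 of all 27025 genes with an entry (1.81%). The 4 risen genes were *Egr2*, *Dusp5*, *Zfp36*, and *Ampd3*. The windows of *Egr2*, *Dusp5*, and *Zfp36* are shown with that of *Srf* because they carry the binding sequence of the complex and belong to genes of the lists described here. Capitals mark the CArG boxes, and every window is written on the strand of its gene. *Egr2* is at chr10:67537484-67537513 (plus strand), *Dusp5* at chr19:53529058-53529087 (plus), *Zfp36* at chr7:28379267-28379296 (minus), and *Srf* at chr17:46556215-46556244 (minus).
Egr2: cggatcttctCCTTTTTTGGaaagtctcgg
Dusp5: aatacCCATATTTGGCCTTATATGGgcact
Zfp36: ccaggccgccCCATAAAAGGagaaagctcc
Srf: CCATATAAGGagcggcctcgCCATAAAAGG

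*Dusp5* and *Srf* each held 2 CArG boxes, which in *Dusp5* lay side by side. The windows of *Egr2* and *Srf* lie inside the annotated spans of their genes, and that of *Egr2* was taken from 1 of its 5 promoter entries. A match is a description of the letters in the window and not evidence of binding, and a start annotated by RefSeq need not be the start used in BMDMs.

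The NF-κB motif, a 10-base sequence, was in 60 of the 260 risen genes with a promoter entry (23.1%), in 8 of 79 fallen genes (10.1%), and in 1172 of the 9520 genes tested (12.3%). The windows of 5 genes are shown because 4 of these genes were among the larger rises described here and *Nfkbia* had the smallest p of all genes. Capitals mark the motif, which in *Cxcl1*, *Cxcl2*, and *Cxcl10* matched on both strands with a shift of 1 base. *Nfkbia* is at chr12:55492657-55492686 (minus), *Cxcl1* at chr5:90891165-90891193 (plus), *Cxcl2* at chr5:90903793-90903821 (plus), *Cxcl10* at chr5:92348974-92349002 (minus), and *Ifnb1* at chr4:88522891-88522920 (minus).
Nfkbia: tgactggcttGGAAATTCCCcgcgcctgac
Cxcl1: ctgtactccGGGAATTTCCCtggcccgga
Cxcl2: ctgagctcaGGGAATTTCCCtggtccccg
Cxcl10: cggtttacaGGGGACTTCCCtcgggttgc
Ifnb1: aactgaaagtGGGAAATTCCtctgaggcag

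Of the other motifs searched, CCGGAAGT, an ETS site, was in 10 of the 260 risen genes (3.85%) and in 922 of the 9520 genes tested (9.68%). TGACGTCA, a CREB/ATF site, was in 16 risen genes (6.15%) and in 351 of those tested (3.69%). TGANTCA, an AP-1 site, was in 28 risen genes (10.8%) and in 602 of those tested (6.32%). The shares were not tested.

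The 8 libraries separated by treatment. PC1 over the genes tested held 82.5% of the variance and placed the 4 unstimulated libraries between -25.1 and -24.3 and the 4 LPS libraries between 24.0 and 25.3. The root mean square difference between libraries of a group ran from 0.14 to 0.22 without LPS and from 0.14 to 0.20 at 1 h, and the library medians over genes tested lay between 9.06 and 9.10. The table holds no counts, so precision was judged from the replicates and not from depth.

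LPS changed 417 genes in *Elk1*-/-*Elk4*-/- BMDMs. In all, 324 genes rose, which was 2.73% of the genes tested, and 93 fell, which was 0.783%. The median change over all genes tested was -0.01. The rises were also the larger changes: the largest rise was 5.63 (*Il1b*) and the largest fall -2.41 (*Txnip*). By adjusted p alone, 1976 genes rose (16.6%) and 1976 fell (16.6%).

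**Figure D1:**
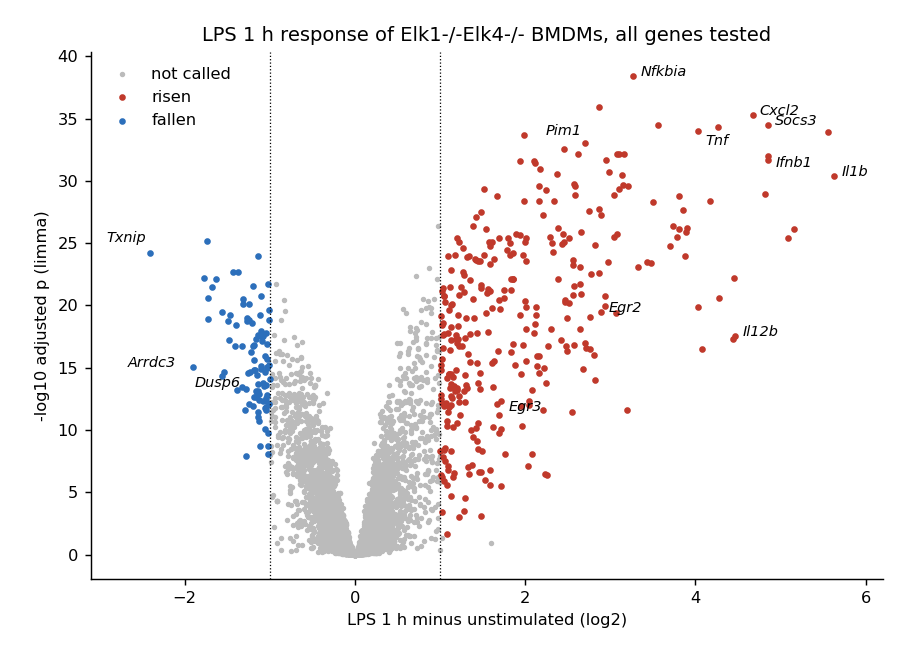
Change of each gene tested between 1 h of LPS and no LPS in *Elk1*-/-*Elk4*-/- BMDMs (x axis, log2) against -log10 of its limma adjusted p (y axis); red points rose, blue points fell, dotted lines mark a change of 1. The 324 risen genes reach 5.63, and the 93 fallen genes stop at -2.41.

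The genes with the largest rise that are described here encoded cytokines, chemokines, enzymes, and regulators of inflammation. Their 4 values per group did not overlap, which was a condition of the choice. *Il1b* (chr2:129364569-129371164), the precursor of IL-1β, read 9.05, 8.93, 8.91 and 8.94 without LPS and 14.61, 14.57, 14.48 and 14.69 with LPS, and rose by 5.63 ± 0.20 (SE, adjusted p = 4.47e-31), 49.5-fold on this scale. *Cxcl1* (chr5:90891245-90893121), a neutrophil-attracting chemokine, read 8.32, 8.32, 8.31 and 8.28 and then 13.72, 13.88, 14.02 and 13.82, and rose by 5.55 ± 0.16 (SE, adjusted p = 1.15e-34). *Il1a* (chr2:129299609-129310186), which encodes IL-1α and lies close to *Il1b*, read 6.61, 6.82, 6.63 and 6.36 and then 11.73, 11.72, 11.79 and 11.82. The rise of *Il1a* was 5.16 ± 0.22 (SE, adjusted p = 7.20e-27).

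*Ptgs2* (chr1:150100031-150108234) encodes cyclooxygenase-2, the inducible enzyme of prostaglandin synthesis. It read 7.34, 7.33, 7.23 and 7.22 and then 12.24, 12.31, 12.40 and 12.52, a rise of 5.09 ± 0.23 (SE, adjusted p = 4.12e-26). *Irg1*, now *Acod1* (chr14:103047012-103056573), encodes the enzyme that makes itaconate, and read 8.87, 8.60, 8.62 and 8.60 and then 13.48, 13.43, 13.60 and 13.45, a rise of 4.82 ± 0.18 (SE, adjusted p = 1.19e-29). *Socs3* (chr11:117966079-117970336), an inhibitor of cytokine receptor signalling, read 8.76, 8.77, 8.74 and 8.70 and then 13.59, 13.64, 13.57 and 13.58, a rise of 4.85 ± 0.14 (SE, adjusted p = 3.54e-35). In each of these genes the lowest library with LPS was more than 4 above the highest without.

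*Tnfsf9* (chr17:57105287-57107758), the ligand 4-1BBL, rose by 4.85 ± 0.16 (SE, adjusted p = 2.26e-32), from values of 9.24, 9.26, 9.26 and 9.32 to 14.11, 14.19, 14.19 and 13.99. *Ifnb1* (chr4:88522025-88522794), which encodes IFN-β, read 4.61, 5.05, 5.10 and 4.56 without LPS and 9.73, 9.40, 9.54 and 10.05 with LPS, and rose by 4.85 ± 0.16 (SE, adjusted p = 1.09e-32). *Il12b* (chr11:44400063-44414677), the shared p40 subunit of IL-12 and IL-23, read 5.12, 5.67, 5.59 and 5.27 and then 9.87, 9.95, 10.00 and 9.72. The rise of *Il12b* was 4.47 ± 0.31 (SE, adjusted p = 2.99e-18).

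*Cxcl2* (chr5:90903899-90905938), a second neutrophil-attracting chemokine, read 9.74, 9.77, 9.77 and 9.77 and then 14.34, 14.53, 14.51 and 14.36, a rise of 4.67 ± 0.13 (SE, adjusted p = 5.01e-36). *Sele* (chr1:164039614-164058487), the adhesion molecule E-selectin, which is best known from endothelium, read 3.95, 4.41, 4.45 and 3.95 and then 8.56, 8.59, 8.59 and 8.77, a rise of 4.44 ± 0.31 (SE, adjusted p = 5.22e-18). At *Sele*, *Il12b*, *Ifnb1*, and other genes of low resting value, the unstimulated replicates 2 and 3 read above replicates 1 and 4, by less than the distance to the LPS libraries.

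**Figure D2:**
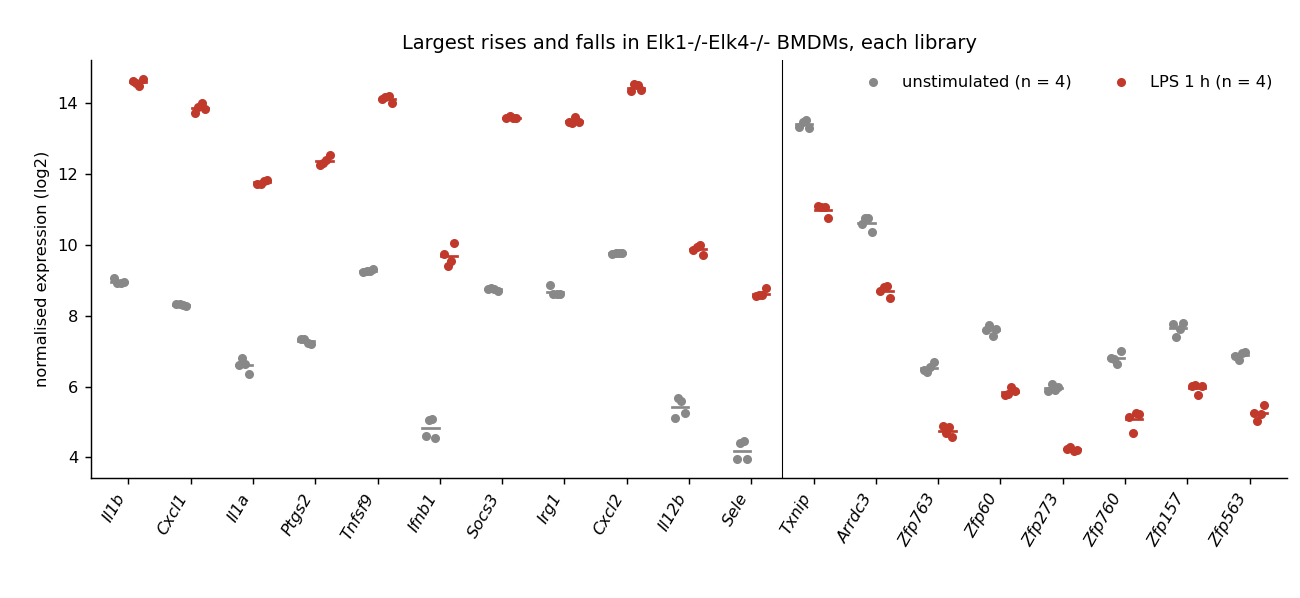
Normalised expression (log2) in each *Elk1*-/-*Elk4*-/- library without LPS (grey) and after 1 h of LPS (red) for the largest rises described here and the 8 largest falls; points are libraries and bars their means. In every gene shown the 4 values of the groups are apart, which was a condition for the choice.

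The gene lists that follow stand against 2.73% risen and 0.783% fallen among all genes tested. Of 25 immediate early transcription factors tested, 9 rose (36%, against 2.73% of all genes) and none fell, with a median change of 0.90. With the limit at 1.5-fold, 16 of the 25 rose, against 4.84% of all genes at that limit. *Maff*, a small MAF protein, rose by 3.81, the most of the list, and *Csrnp1*, *Junb*, *Myc*, *Klf6*, and *Cebpb* rose by 3.50, 2.58, 1.78, 1.42, and 1.36. *Egr2* (chr10:67534469-67542188), a zinc finger factor, read 9.64, 9.79, 9.75 and 9.63 and then 12.58, 12.66, 12.61 and 12.55, and rose by 2.90 ± 0.18 (SE, adjusted p = 3.09e-20). *Egr3* (chr14:70077317-70082613), of the same family, read 6.82, 6.47, 6.54 and 6.54 and then 8.33, 8.29, 8.21 and 8.41, and rose by 1.72 ± 0.16 (SE, adjusted p = 4.36e-13). *Egr1*, the family member best known as a TCF target, read 6.96, 7.17, 6.98 and 6.96 and then 7.33, 7.45, 7.52 and 7.11. The *Egr1* groups overlapped and its change of 0.34 ± 0.16 (SE, adjusted p = 0.116) did not pass.

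The *Fos* and *Nr4a* genes were spread over the list. *Fos* (chr12:85473890-85477274), a subunit of AP-1, read 11.10, 10.95, 10.82 and 11.30 without LPS and 11.36, 11.27, 11.27 and 11.27 at 1 h, so that the groups overlapped, with a change of 0.25 ± 0.11 (SE, adjusted p = 0.0875). At 0.5 h *Fos* had read 13.02, 12.999, 12.90 and 13.17, so that the 1 h libraries lay after its highest time. *Fosb* (chr7:19302696-19310118) read 6.59, 6.58, 6.56 and 6.59 and then 6.95, 6.98, 6.92 and 6.87, groups that did not overlap, but its change of 0.35 ± 0.17 (SE, adjusted p = 0.124) did not pass in the shared estimate of the spread. *Nr4a1* (chr15:101253902-101274795), an orphan nuclear receptor, read 7.54, 7.48, 7.57 and 7.56 and then 9.72, 9.79, 9.53 and 9.78, and rose by 2.17 ± 0.17 (SE, adjusted p = 1.25e-16). *Nr4a3* was just below the limit, at 0.97 ± 0.20 (SE, adjusted p = 9.11e-05), and was called without unstimulated replicate 2 (1.13) or 1 h replicates 1 or 3 (1.07 and 1.03). *Ier2* (chr8:84661331-84662852) read 9.70, 9.83, 9.72 and 9.52 and then 10.56, 10.54, 10.56 and 10.26, a change of 0.79 ± 0.09 (SE, adjusted p = 1.43e-10) that was below 1. The lowest change of the list was that of *Klf10*, at -0.35.

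Of 17 genes tested that restrain MAPK signalling, 10 rose (58.8%, against 2.73% of all genes) and 1 fell (5.88%, against 0.783%), with a median of 1.11. *Errfi1*, an inhibitor of EGF receptor signalling, rose by 3.87, and the dual specificity phosphatases *Dusp2*, *Dusp5*, *Dusp1*, *Dusp4*, and *Dusp8* by 3.73, 2.81, 2.29, 2.01, and 1.48. *Dusp5* (chr19:53529145-53541809), whose product acts on nuclear ERK1/2, read 6.84, 6.87, 6.84 and 6.95 and then 9.71, 9.70, 9.62 and 9.73. *Spry1*, a Sprouty inhibitor of receptor tyrosine kinase signalling, rose by 2.50. *Dusp6* (chr10:99263231-99267489), whose product acts on cytoplasmic ERK1/2, was the exception, and read 9.87, 9.86, 9.90 and 9.76 and then 8.58, 8.76, 8.87 and 8.55, a change of -1.16 ± 0.11 (SE, adjusted p = 7.33e-14).

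Of 20 subunits and inhibitors of NF-κB tested, 17 rose (85%, against 2.73%) and none fell, with a median of 1.76, and *Rela*, *Nfkb1*, and *Cyld* were the members not called, at 0.80, 0.59, and 0.10. *Nfkbia* (chr12:55489409-55492647), which encodes the inhibitor IκBα, read 11.51, 11.49, 11.49 and 11.51 and then 14.77, 14.81, 14.81 and 14.68. Its rise of 3.27 ± 0.07 (SE, adjusted p = 3.80e-39) had the smallest p of all genes tested. *Tnfaip3* (chr10:19000910-19015410), the ubiquitin-editing inhibitor A20, read 11.63, 11.69, 11.76 and 11.56 and then 15.41, 15.48, 15.55 and 15.41, and rose by 3.80 ± 0.14 (SE, adjusted p = 1.71e-29). *Nfkbiz*, a nuclear IκB protein, rose by 4.26, the most of the list, and the subunit genes *Rel*, *Relb*, and *Nfkb2* rose by 2.39, 1.52, and 1.28.

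Cytokine genes gave the highest median of the lists, 2.78, with 17 of 22 tested risen (77.3%, against 2.73%) and none fallen. *Tnf* (chr17:35199367-35202007) read 11.64, 11.61, 11.56 and 11.63 and then 15.61, 15.72, 15.76 and 15.49, and rose by 4.03 ± 0.12 (SE, adjusted p = 9.80e-35). *Il10* (chr1:131019845-131024970), an anti-inflammatory cytokine, read 7.25, 7.25, 6.96 and 7.06 and then 9.55, 9.86, 9.98 and 9.78, and rose by 2.66 ± 0.15 (SE, adjusted p = 1.21e-21). *Il6* (chr5:30013114-30019975) read 3.33, 3.83, 3.87 and 3.34 and then 6.42, 6.33, 6.44 and 6.46, and rose by 2.82 ± 0.24 (SE, adjusted p = 1.05e-14). No library with LPS overlapped one without at these 3 genes. *Il23a*, *Csf2*, *Lif*, and *Edn1* rose by 4.28, 4.03, 3.85, and 3.48, and *Il18*, at 0.06, had the smallest change.

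Among chemokine genes, 13 of 19 tested rose (68.4%, against 2.73%) and none fell, with a median of 2.70. After *Cxcl1* and *Cxcl2* came *Cxcl10* (chr5:92346638-92348889), a ligand of CXCR3 on T cells, which read 9.48, 9.30, 9.30 and 9.62 and then 13.56, 13.64, 13.55 and 13.64 and rose by 4.17 ± 0.16 (SE, adjusted p = 4.56e-29). The monocyte-attracting *Ccl2* and *Ccl7* rose by 2.82 and 2.77, and the macrophage inflammatory proteins *Ccl3* and *Ccl4* by 3.10 and 2.99. *Ccl6* and *Pf4* had changes of -0.01 and 0.04 and did not pass.

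Inflammatory enzymes and receptors rose in 15 of 25 cases tested (60%, against 2.73%), with none fallen and a median of 1.29. Beside *Ptgs2* and *Irg1*, these included *Plat*, tissue plasminogen activator, at 3.70, the adhesion molecule *Icam1* at 3.21, and the costimulatory receptor *Cd40* at 3.04. *Nos2*, the inducible nitric oxide synthase, had a change of 0.73 with an adjusted p of 0.286. Survival and stress genes rose in 15 of 24 cases (62.5%, against 2.73%), with none fallen and a median of 1.71. After *Socs3* came *Id3*, an inhibitor of helix-loop-helix factors, at 3.90, and *Kdm6b*, a histone H3 demethylase, at 3.43, while *Gadd45g* was lowest at -0.39.

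Of 32 interferon response genes tested, a list that leaves out *Ifnb1*, which is counted with the cytokines, 4 rose (12.5%, against 2.73% of all genes) and none fell, and the median was 0.03. By adjusted p alone 9 rose and 1 fell, where 16.6% of all genes rose and 16.6% fell. The 4 were *Gbp5*, a guanylate-binding protein, at 2.54, the transcription factor *Irf1* at 2.46, *Oasl1* at 1.34, and *Ifit1* at 1.05. *Rsad2* and *Isg15* read 0.92 and 0.81, below the limit, and *Stat2* had the lowest change, -0.51. Genes of the TLR4 pathway rose in 3 of 30 cases, 10% against 2.73% (*Tlr2* by 2.38, *Cd14* by 1.55, and *Irak2* by 1.09), with none fallen and a median of 0.13. *Tlr4*, the LPS receptor, changed by -0.29.

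Genes of mRNA decay and antiproliferative genes rose in 5 of 11 cases (45.5%, against 2.73%), with none fallen and a median of 0.17. *Zfp36* (chr7:28376784-28379228), which encodes tristetraprolin, a protein that destabilizes cytokine mRNA, read 12.03, 12.02, 11.96 and 11.97 and then 14.50, 14.63, 14.59 and 14.31, and rose by 2.51 ± 0.11 (SE, adjusted p = 3.71e-26). *Zc3h12c* rose by 3.56, while *Zfp36l2* was lowest at -0.77. The cytoskeletal targets of SRF gave no call among 17 tested, and their median was 0.16. By adjusted p alone 10 of the 17 rose, against 16.6% of all genes, and *Filip1l* had the highest change, 0.97, and was called when unstimulated replicate 4 was left out. *Actb* and *Vcl* changed by 0.29 and 0.16. Among the list members, *Egr4*, *Spry4*, *Il12a*, *Csf3*, *Cxcl5*, and *Fhl2* were under the filter on low values and were not tested. These lists were written with earlier results of these data known, so their counts describe them and are not independent evidence.

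**Figure D3:**
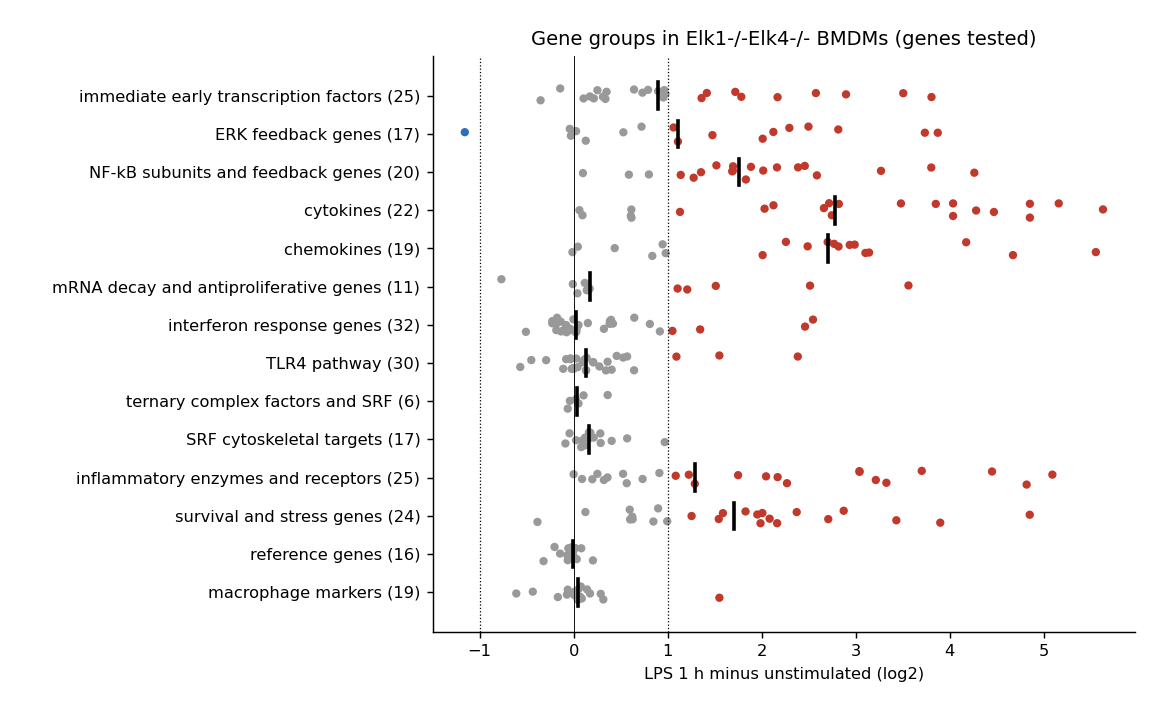
Change between 1 h of LPS and no LPS in *Elk1*-/-*Elk4*-/- BMDMs (x axis, log2) for each member tested of 14 gene lists (1 line each, with the number tested); red points rose, blue points fell, grey points were not called, and black bars are medians. Cytokines (median 2.78), chemokines (2.70), NF-κB genes (1.76), and survival genes (1.71) lie to the right of the SRF cytoskeletal targets (0.16) and interferon response genes (0.03).

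The 93 fallen genes were led by 2 arrestin-domain genes and by zinc finger genes. *Txnip* (chr3:96557957-96561857), an inhibitor of glucose uptake and of thioredoxin, read 13.32, 13.47, 13.53 and 13.29 without LPS and 11.09, 11.06, 11.06 and 10.77 with LPS, and its change was -2.41 ± 0.12 (SE, adjusted p = 6.56e-25). *Arrdc3* (chr13:80883384-80896042), of the same arrestin family, read 10.58, 10.76, 10.76 and 10.36 and then 8.69, 8.81, 8.84 and 8.498, and its change was -1.90 ± 0.15 (SE, adjusted p = 8.41e-16). *Txnip* had read 12.49, 12.66, 12.68 and 12.40 at 0.5 h and read 12.05, 12.02, 11.88 and 11.98 at 2 h. *Arrdc3* read 7.75, 7.81, 7.87 and 7.70 at 2 h, below every value at 1 h.

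The other 6 of the largest falls carried Zfp symbols. *Zfp763* (chr17:33016864-33033381) read 6.47, 6.42, 6.54 and 6.70 and then 4.89, 4.70, 4.86 and 4.57, a change of -1.78 ± 0.10 (SE, adjusted p = 6.56e-23). *Zfp60* (chr7:27731409-27751689) read 7.59, 7.73, 7.43 and 7.63 and then 5.77, 5.80, 5.99 and 5.87, a change of -1.73 ± 0.08 (SE, adjusted p = 6.33e-26). *Zfp273*, *Zfp760*, *Zfp157*, and *Zfp563* changed by -1.73, -1.73, -1.68, and -1.63. All genes whose symbol is Zfp with a number were then counted, a group chosen after these values were seen. Of 313 tested, 44 fell (14.1%, against 0.783% of all genes) and 5 rose (against 2.73%), with a median of -0.45. At 1.5-fold 124 fell and 8 rose, against 3% and 4.84% of all genes. By adjusted p alone 221 fell and 27 rose, against 16.6% of all genes in each direction. The same group had a median of -0.46 in WT cells, where 47 fell and 6 rose, against 0.942% and 3.2% of all genes. Many Zfp genes are recent copies of each other, so the values of single members are uncertain.

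The cell type labels were checked against marker genes. Of 19 macrophage markers in the table all passed the filter, and 1 (*Cd14*) rose with LPS. The log2 of their summed linear level was 19.84 to 20.02 without LPS and 19.92 to 20.02 at 1 h. The lymphocyte markers summed to 8.35 to 8.83 and 8.33 to 8.71, and 10 of 12, among them *Cd3e* and *Cd79a*, were below a linear value of 10 in all 8 libraries. The neutrophil markers summed to 10.91 to 11.20 and 11.10 to 11.31, and *Ly6g*, *Elane*, *Mpo*, and *Prtn3* were below 10 in all 8. The other 9 (*S100a8*, *S100a9*, *Camp*, *Ltf*, *Ngp*, *Retnlg*, *Cxcr2*, *Mmp8*, and *Mmp9*) reached a linear value of 10 in at least 1 of the 8. The highest log2 value of a neutrophil marker was 9.69. Dendritic and mast cell markers summed to 6.87 to 7.65 and 7.06 to 7.73 (6 of 10 below 10 in all 8), and fibroblast and erythroid markers to 4.86 to 5.26 and 4.96 to 5.37 (9 of 11). Of these 4 lists, 2 lymphocyte, 9 neutrophil, 4 dendritic and mast cell, and 2 fibroblast and erythroid markers were tested, and none was called. None of 16 reference genes was called either, and their median change was -0.01. Among all genes tested 2.73% rose and 0.783% fell, so no call in lists this short is near that share and is no result about them. By adjusted p alone, against 16.6% of all genes in each direction, 1 reference gene rose and 2 fell. Of the markers in the 4 lists, 1 neutrophil, 2 dendritic and mast cell, and 1 fibroblast and erythroid marker rose by adjusted p alone. In these bulk samples, fewer cells of a type and less RNA per cell cannot be told apart.

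The same contrast was then taken in WT cells, where 380 genes rose (3.2% of those tested) and 112 fell (0.942%). The WT libraries are of another experiment, so the genotype and the experiment cannot be told apart in what follows. Of the risen genes, 304 were called in both genotypes, 93.8% of the *Elk1*-/-*Elk4*-/- list and 80% of the WT list. Of the fallen genes, 78 were shared, 83.9% and 69.6%. No gene was called in opposite directions. Across the 11884 genes the responses had a Pearson r of 0.96 and a Spearman rho of 0.89, given as a description since genes are not independent replicates and the contrasts share no library. Over the 380 genes risen in WT, the median rise was 1.72 in WT and 1.49 in *Elk1*-/-*Elk4*-/- cells, and over the 324 risen in *Elk1*-/-*Elk4*-/- cells it was 1.86 in WT and 1.71.

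The response itself differed between *Elk1*-/-*Elk4*-/- and WT cells at 21 genes. It was lower without ELK1 and ELK4 at 16 genes (0.135% of those tested) and higher at 5 (0.0421%), by the test of the difference with the same limits. By adjusted p alone it was lower at 112 (0.942%) and higher at 48 (0.404%). Of the 76 genes called risen in WT only, 5 had a called difference, and of the 20 called risen in *Elk1*-/-*Elk4*-/- cells only, 2 had. The other genes called risen in 1 genotype alone had no called difference of the responses.

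Immediate early transcription factors held 5 of the 16 lower responses: *Egr1*, *Fosb*, *Egr3*, *Nr4a3*, and *Fosl1*. Of the 25 tested, 10 were lower by adjusted p alone, against 0.942% of all genes, and none was higher. In WT cells 16 of these 25 had risen, against 3.2% of all genes, with a median change of 1.70, beside 9 and 0.90 in *Elk1*-/-*Elk4*-/- cells. *Egr1* showed the largest difference of all genes tested. In WT it read a lowest, median, and highest value of 7.70, 8.02 and 8.33 without LPS and 11.19, 11.36 and 11.62 at 1 h, a rise of 3.41, beside 0.34 in *Elk1*-/-*Elk4*-/- cells. The difference was -3.07 ± 0.21 (SE, adjusted p = 6.85e-16). All 4 *Elk1*-/-*Elk4*-/- libraries at 1 h lay below every unstimulated WT library, and their resting values were also below those of WT.

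*Egr3* rose in both genotypes and less without ELK1 and ELK4. The WT values were 6.81, 6.96 and 7.20 and then 9.79, 10.04 and 10.21, a rise of 3.03, and the difference of the responses was -1.31 ± 0.21 (SE, adjusted p = 5.61e-05). *Egr2* rose by 2.43 in WT, and its difference of 0.47 ± 0.23 (SE, adjusted p = 0.682) did not pass. The 3 *Egr* genes stood far apart in their differences, from -3.07 for *Egr1* over -1.31 for *Egr3* to 0.47 for *Egr2*.

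*Fosb* rose by 1.84 in WT, where its values at 1 h were 8.06, 8.46 and 9.001, and the difference was -1.49 ± 0.22 (SE, adjusted p = 1.45e-05). *Fosl1*, another AP-1 subunit, rose by 1.75 in WT and changed by 0.73 in *Elk1*-/-*Elk4*-/- cells, a difference of -1.02 ± 0.24 (SE, adjusted p = 0.0102). *Nr4a3* gave 2.05 and 0.97, a difference of -1.07 ± 0.26 (SE, adjusted p = 0.0162). *Ier2* and *Nr4a1* had differences of -0.91 ± 0.12 (SE, adjusted p = 4.72e-07) and -0.88 ± 0.21 (SE, adjusted p = 0.016), past the p limit and smaller than 1. *Fos* differed by -0.60 ± 0.15 (SE, adjusted p = 0.0181), and *Junb* and *Srf* by -0.30 and 0.01, with adjusted p of 0.389 and 1.00.

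**Figure D4:**
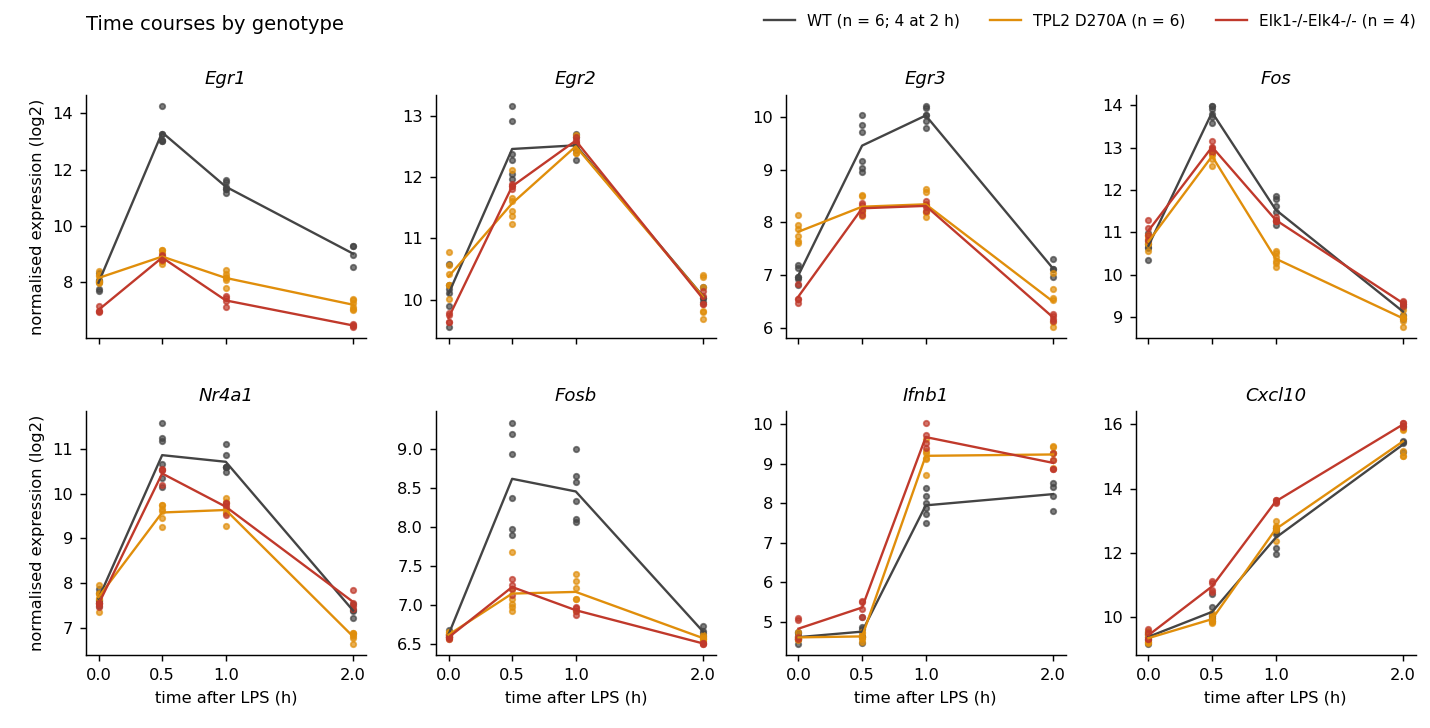
Normalised expression (log2, y axis) against time after LPS (h, x axis) for 8 genes in WT (black), TPL2 D270A (orange), and *Elk1*-/-*Elk4*-/- (red) BMDMs; points are libraries and lines join group means. At 1 h *Egr1* read 7.11 to 7.52 in the *Elk1*-/-*Elk4*-/- libraries and 11.19 to 11.62 in WT, while *Egr2* read 12.55 to 12.66 and 12.27 to 12.70.

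The other lower responses belonged to surface proteins, cytokines, and regulators. *Olr1* (chr6:129479150-129507350), the receptor for oxidized LDL, read 4.49, 4.64, 4.69 and 4.32 and then 7.01, 7.33, 7.22 and 7.63 in *Elk1*-/-*Elk4*-/- cells, a rise of 2.76 ± 0.20 (SE, adjusted p = 3.41e-17). In WT it read 4.15, 4.35 and 4.44 and then 8.44, 9.25 and 9.58, and the difference was -2.04 ± 0.26 (SE, adjusted p = 4.72e-07). The resting values overlapped, and at 1 h every *Elk1*-/-*Elk4*-/- library lay below every WT library.

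*Tnfsf4* (chr1:161395438-161418206), the ligand OX40L, read 4.98, 5.03, 5.02 and 5.16 and then 7.14, 7.27, 7.02 and 7.60. In WT it reached 8.11, 8.85 and 9.51, and the difference was -1.46 ± 0.29 (SE, adjusted p = 0.00148). *Csf2* (chr11:54247270-54249899), which encodes GM-CSF, read 3.34, 3.71, 3.75 and 3.27 and then 7.34, 7.77, 7.63 and 7.47, against 8.03, 8.75 and 9.31 at 1 h in WT, a difference of -1.35 ± 0.32 (SE, adjusted p = 0.0107). The 1 h values of *Csf2* and *Tnfsf4* did not overlap between the genotypes.

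*Kdm6b* (chr11:69398508-69420367) read 7.63, 7.63, 7.58 and 7.48 and then 10.999, 11.13, 10.97 and 10.95, against 11.87, 12.08 and 12.44 in WT, a difference of -1.21 ± 0.22 (SE, adjusted p = 4.89e-04). *Nfkbid*, a nuclear IκB protein, was the only NF-κB gene called, at -1.13 ± 0.19 (SE, adjusted p = 1.71e-04), and *Clcf1*, a cytokine of the IL-6 family, differed by -1.03 ± 0.26 (SE, adjusted p = 0.0185). *Flrt3*, a membrane protein of cell adhesion, and *Fjx1*, a secreted kinase-like protein, differed by -1.21 and -1.02. *Fjx1* passed the filter on low values only with the other genotypes counted. With the 16 or 8 *Elk1*-/-*Elk4*-/- libraries alone it was not tested, so its difference gives no support to a lower response. *Bcl2a1a*, an inhibitor of apoptosis, differed by -1.13, while its near-identical copies *Bcl2a1b* and *Bcl2a1d* differed by -0.30 and -0.50. How reads shared among these copies were divided was not tested, and the value of each is uncertain. *Arc* had not passed in either genotype, at -0.40 in *Elk1*-/-*Elk4*-/- and 0.73 in WT cells, and its difference was -1.13 ± 0.25 (SE, adjusted p = 0.00783).

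*Vcam1* and *Il10* differed in resting value as well. *Vcam1*, an adhesion molecule, read 8.09, 7.62, 7.07 and 7.58 without LPS in *Elk1*-/-*Elk4*-/- cells and 5.54, 5.62 and 5.82 in WT, and 9.86, 9.67, 9.63 and 9.77 and 8.39, 8.94 and 9.16 at 1 h. The difference of its responses was -1.06 ± 0.21 (SE, adjusted p = 0.00173), while its level was higher in *Elk1*-/-*Elk4*-/- cells at both times. *Il10* read 6.08, 6.32 and 6.72 without LPS in WT, below all *Elk1*-/-*Elk4*-/- libraries, and 9.46, 9.76 and 10.18 at 1 h, where the genotypes overlapped. The difference of its responses was -0.77 ± 0.20 (SE, adjusted p = 0.0253), below the limit of 1.

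A higher response without ELK1 and ELK4 was found at *Ifnb1*, *Cxcl10*, *Id3*, *Slc5a3*, and *Il1f9*. *Ifnb1* read 4.44, 4.61 and 4.74 without LPS and 7.51, 7.94 and 8.40 at 1 h in WT, a rise of 3.34. The difference was 1.51 ± 0.20 (SE, adjusted p = 8.71e-07), and every *Elk1*-/-*Elk4*-/- library at 1 h lay above every WT library. *Cxcl10* rose by 3.09 in WT, where it reached 11.96, 12.62 and 12.76, and the difference was 1.08 ± 0.21 (SE, adjusted p = 0.00117).

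*Id3* (chr4:136143822-136145392) read 5.66, 5.86, 5.67 and 5.597 and then 9.57, 9.57, 9.44 and 9.80 in *Elk1*-/-*Elk4*-/- cells and reached 8.58, 8.77 and 9.05 in WT, a difference of 1.04 ± 0.22 (SE, adjusted p = 0.00311). *Slc5a3* (chr16:92058322-92087473), a myo-inositol transporter, read 6.56, 6.61, 6.41 and 6.35 and then 7.76, 7.87, 8.04 and 7.67, and differed by 1.03 ± 0.14 (SE, adjusted p = 8.71e-07). *Il1f9* (chr2:24186476-24193567), which encodes IL-36γ, read 2.59, 3.01, 2.62 and 2.51 and then 4.02, 3.91, 4.12 and 4.00, low on the scale, and differed by 1.02 ± 0.13 (SE, adjusted p = 3.94e-07). In WT *Slc5a3* and *Il1f9* changed by 0.32 and 0.30. Without LPS all 4 *Il1f9* values lay below the filter's linear value of 10, which is 3.32 on this scale. Among the 8 libraries *Il1f9* thus passed the filter only through those with LPS, so its rise and its difference give no support to a higher response. None of the 32 interferon response genes had a called difference, where 0.135% of all genes tested were lower and 0.0421% higher. That is near the share of all genes and is no result about the list. By adjusted p alone 1 of the 32 was lower and none higher, against 0.942% and 0.404% of all genes. The median difference of the list was 0.02. The differences at *Gbp5* and *Ifit1* were 0.64 and 0.50, with adjusted p of 0.775 and 0.533.

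**Figure D5:**
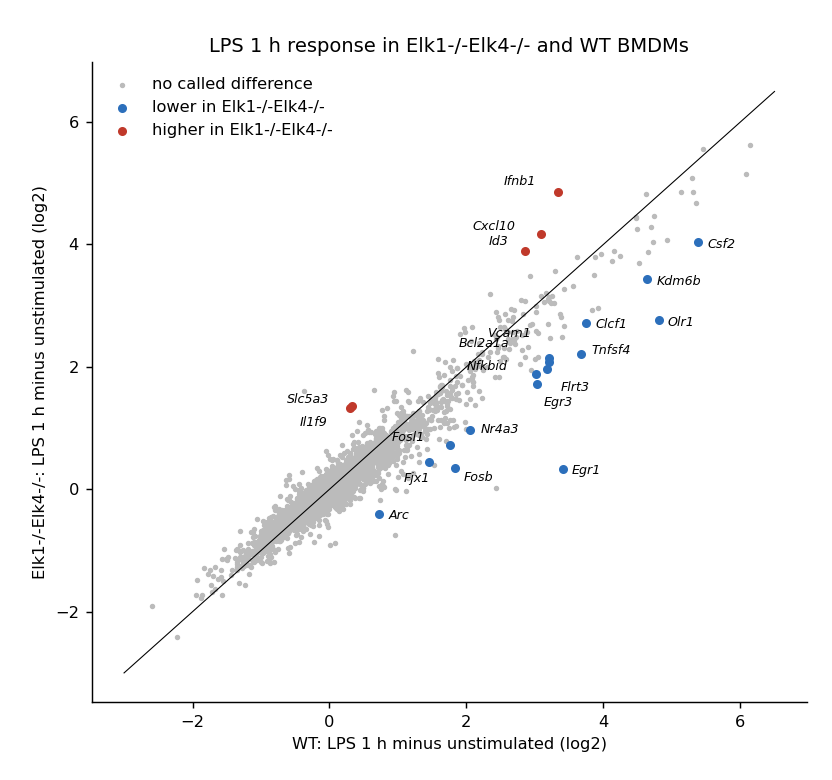
Change between 1 h of LPS and no LPS in WT (x axis) and *Elk1*-/-*Elk4*-/- (y axis) BMDMs, both log2, for each gene tested; blue points mark the 16 lower and red points the 5 higher responses without ELK1 and ELK4, and the line marks equal responses. *Egr1* lies at 3.41 and 0.34, and *Ifnb1* at 3.34 and 4.85.

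Of the genes of largest rise described above, *Ifnb1* had a called difference from WT, 1.51. *Cxcl1*, *Sele*, *Ptgs2*, *Irg1*, and *Il12b* differed from WT by 0.10, -0.03, -0.20, 0.19, and -0.27, and none of these passed. *Il1b*, *Il1a*, *Tnfsf9*, and *Socs3* differed by -0.52, -0.92, -0.46, and -0.28, with adjusted p from 0.122 to 0.944. *Cxcl2* and *Tnf* were past the p limit, at -0.68 ± 0.16 (SE, adjusted p = 0.0122) and -0.69 ± 0.15 (SE, adjusted p = 0.00576), both smaller than 1. *Nfkbia* and *Tnfaip3* differed by -0.15 ± 0.10 (SE, adjusted p = 0.966) and -0.07 ± 0.19 (SE, adjusted p = 1.00). *Il6* differed by 0.14 ± 0.31 (SE, adjusted p = 1.00). An adjusted p above the limit does not show that the responses were equal.

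Each difference was also taken against WT replicates 4 to 6 alone and against WT replicates 7 to 9 alone. In this order, *Egr1* differed by -3.17 and -2.97, *Olr1* by -2.22 and -1.87, *Fosb* by -1.29 and -1.68, *Tnfsf4* by -1.67 and -1.26, *Egr3* by -1.41 and -1.21, and *Kdm6b* by -1.30 and -1.12. These 6 were called against both sets, as was *Ifnb1*, at 1.31 and 1.72. The other 10 lower and 4 higher genes kept their sign against both sets and were called against 1. *Csf2* gave -1.84 and -0.87, *Arc* -1.68 and -0.58, *Flrt3* -1.64 and -0.77, and *Cxcl10* 0.90 and 1.27. The count of lower genes was 30 against replicates 4 to 6 and 7 against replicates 7 to 9. The labels do not call these sets batches.

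The differences near 1 also hung on single libraries. *Fosl1* lost its call without unstimulated *Elk1*-/-*Elk4*-/- replicate 3 (-0.998), 1 h replicate 3 (-0.92), unstimulated WT replicates 4, 6, or 8 (-0.94, -0.996, and -0.99), or 1 h WT replicates 7, 8, or 9 (-0.97, -0.98, and -0.89). *Fjx1* lost it without unstimulated replicate 3 (-0.996), 1 h replicate 2 (-0.90), or 1 h WT replicates 6 or 8 (both -0.999). *Clcf1* lost it without unstimulated replicates 2 or 3 (-0.97 and -0.96), 1 h replicates 1 or 3 (both -0.99), or 1 h WT replicates 4 or 6 (-0.95 and -0.97). *Nr4a3* lost it without unstimulated replicate 2 (-0.92), 1 h replicate 1 (-0.98), or 1 h WT replicate 4 (-0.96), and *Vcam1* without unstimulated replicate 1 (-0.89) or 1 h WT replicate 4 (-0.997). Among the higher genes, *Il1f9* lost its call without unstimulated replicates 1 or 4 (0.99 and 0.97), 1 h replicate 3 (0.99), or 1 h WT replicate 6 (0.99), and *Slc5a3* without unstimulated replicate 4 (0.99), 1 h replicate 3 (0.97), or 1 h WT replicates 8 or 9 (0.98 and 0.996). *Id3* lost it without 1 h replicate 4 (0.97) and *Cxcl10* without 1 h WT replicate 9 (0.98). Leaving out any 1 library of the comparison did not end the call at *Egr1*, *Olr1*, *Fosb*, *Tnfsf4*, *Csf2*, *Egr3*, *Kdm6b*, *Flrt3*, *Arc*, *Nfkbid*, *Bcl2a1a*, or *Ifnb1*.

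Against TPL2 D270A cells, whose TPL-2 cannot signal to ERK1/2, 11 genes responded more in *Elk1*-/-*Elk4*-/- cells (0.0926% of those tested) and 2 less (0.0168%). This difference shares the *Elk1*-/-*Elk4*-/- libraries with the difference from WT, so the values are set side by side only. The higher genes were led by *Adamts4*, a metalloprotease, at 1.94 ± 0.42 (SE, adjusted p = 0.00447), the cytokine *Lif* at 1.85 ± 0.20 (SE, adjusted p = 5.09e-09), the nicotinic acid receptor *Hcar2* at 1.84 ± 0.22 (SE, adjusted p = 6.38e-08), and *Id3* at 1.82 ± 0.22 (SE, adjusted p = 6.38e-08). *Il23a*, *Fpr1*, *Il1f9*, and *Serpinb2* followed at 1.42, 1.41, 1.23, and 1.23, then *Egr3* at 1.20, the transcription factor *Klf2* at 1.18, and *Kctd12* at 1.12. The limit set by the filter at *Il1f9*, given above, holds for this difference too. *Lif* changed by 3.85 in *Elk1*-/-*Elk4*-/- cells, 3.97 in WT, and 2.01 in TPL2 D270A cells, and *Hcar2* by 2.14, 1.59, and 0.30. At *Egr3* the resting values of TPL2 D270A cells, 7.60, 7.80 and 8.13, lay above all of the *Elk1*-/-*Elk4*-/- libraries, while at 1 h they were 8.10, 8.28 and 8.63 and overlapped with them.

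The 2 lower genes were *Olr1*, at -1.19 ± 0.26 (SE, adjusted p = 0.00615), and the integrin *Itgb8*, at -1.12 ± 0.29 (SE, adjusted p = 0.0272). *Itgb8* had not passed in *Elk1*-/-*Elk4*-/- cells, at 0.44 ± 0.22 (SE, adjusted p = 0.131), and its groups overlapped. Its difference lost the call without unstimulated *Elk1*-/-*Elk4*-/- replicates 2 or 3 (-0.996 and -1.11), 1 h replicates 1 or 4 (-1.11 and -1.06), or 1 h TPL2 D270A replicate 1 (-1.06). In TPL2 D270A cells *Egr1* had means of 8.15 and 8.15, and *Fosb* and *Ifnb1* changed by 0.55 and 4.598. The differences of the *Elk1*-/-*Elk4*-/- responses at *Egr1*, *Fosb*, and *Ifnb1* were 0.34 ± 0.21 (SE, adjusted p = 0.93), -0.20 ± 0.22 (SE, adjusted p = 1.00), and 0.25 ± 0.20 (SE, adjusted p = 1.00). *Fos* differed by 0.66 ± 0.15 (SE, adjusted p = 0.00817), past the p limit and smaller than 1. Against TPL2 D270A replicates 1 to 3 and 4 to 6, 9 of the 11 higher genes were called in both sets. *Il23a* was called in neither, at 1.35 and 1.4996, and *Adamts4* only against replicates 1 to 3, at 2.47 and 1.41. Of the 2 lower genes, neither was called against replicates 4 to 6.

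The 1 h libraries fall between earlier and later states. In *Elk1*-/-*Elk4*-/- cells *Egr1* read 8.88 ± 0.09 (SD, n = 4) at 0.5 h and 6.47 ± 0.05 (SD, n = 4) at 2 h, so that its highest mean was at 0.5 h, as in WT, where it was 13.32 ± 0.48 (SD, n = 6). *Nr4a1* and *Ier2* also had their highest mean at 0.5 h, 10.45 ± 0.17 (SD, n = 4) and 12.09 ± 0.13 (SD, n = 4). *Ifnb1* read 5.36 ± 0.19 (SD, n = 4) at 0.5 h and 9.03 ± 0.20 (SD, n = 4) at 2 h, so that its highest mean was at 1 h. *Cxcl10*, *Il12b*, and *Il6* went on to 15.997 ± 0.06 (SD, n = 4), 13.13 ± 0.54 (SD, n = 4), and 9.42 ± 0.14 (SD, n = 4) at 2 h. These times are given as levels and were not tested.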

How the data were processed

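RNA-seq of bone marrow–derived macrophages was deposited by the authors as 1 table of normalised expression on a log2 scale, with a column per library. The submitters' processing notes name STAR 2.5.1b, RSEM 1.2.29, and DESeq2 1.10.1 and the build mm10. The labels and methods do not name the transformation that gave the log2 values. The study's methods state a typical sequencing yield, and the table holds no depth for each library. Gene positions and promoters were taken from RefSeq tables of GRCm38.p6.

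The 62 libraries of the genotypes Elk1-/-Elk4-/-, WT, and Map3k8[D270A] from unstimulated cells and cells given LPS were fitted together in limma 3.58.1 (R 4.3.3), with 1 mean per genotype and time. Genes were tested if their linear value was at least 10 in 4 or more of these libraries, which kept 11884 of 18098. Over the whole series 1 value above 25 was set to missing, in a library outside the 62. The difference of responses was the interaction contrast. A call needed a Benjamini-Hochberg adjusted p below 0.05 over all genes tested and a log2 difference of at least 1. p-values measure the spread between libraries, which may be technical, since the labels do not name separate mice.

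Members and gene lists were chosen with earlier results of these data known, and the Zfp and heat shock groups after their values were seen. Genes named in full were the targeted genes with Elk3 and Srf, the 12 largest rises (1 of them is not reported here) and 8 largest falls whose groups did not overlap, the largest called differences of response in each direction (up to 6), and from each list its extremes and known TCF and NF-κB targets. The remaining called differences were named so that each count could be followed. Unstimulated and 1 h Elk1-/-Elk4-/- libraries of 1 replicate number deviated together (correlations 0.154, 0.139, 0.393, and 0.470), which was taken as a pairing, so the fit was repeated with a replicate block. Other alternatives were other libraries in the fit, other filters, median centring, limma with a trend, other limits, and leaving out each library. The procedure was tested on simulated data. Figures were drawn with matplotlib 3.10.9 (Python 3.11.15).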

Additional observations from a re-analysis of the deposited data

Results flagged for a closer look

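In 12 of 248 groups of 4 to 6 libraries, over 62 named genes, 1 library stood apart from the others of its group, and chance alone gives about 1 in 20 such groups. In the *Elk1*-/-*Elk4*-/- libraries at 1 h, replicate 4 was apart at *Sele* (8.77), *Txnip* (10.77), *Ier2* (10.26), and *Clcf1* (7.02), replicate 1 at *Elk1* (6.42) and *Fos* (11.36), and replicate 2 at *Srf* (10.39). Without LPS, replicate 1 was apart at *Irg1* (8.87) and *Cxcl2* (9.74) and replicate 2 at *Egr1* (7.17). In WT cells, replicate 9 without LPS was apart at *Il12b* (5.04) and replicate 8 at 1 h at *Itgb8* (4.25).

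The response to LPS differed from that of WT cells, by the test of the difference, at 21 genes. It was lower in *Elk1*-/-*Elk4*-/- cells at *Egr1* (-3.07), *Olr1* (-2.04), *Fosb* (-1.49), *Tnfsf4* (-1.46), *Csf2* (-1.35), *Egr3* (-1.31), *Kdm6b* (-1.21), *Flrt3* (-1.21), *Arc* (-1.13), *Nfkbid* (-1.13), *Bcl2a1a* (-1.13), *Nr4a3* (-1.07), *Vcam1* (-1.06), *Clcf1* (-1.03), *Fosl1* (-1.02), and *Fjx1* (-1.02). It was higher at *Ifnb1* (1.51), *Cxcl10* (1.08), *Id3* (1.04), *Slc5a3* (1.03), and *Il1f9* (1.02). Of the lower genes, *Fjx1* passed the filter on low values only with the other genotypes counted. Of the higher genes, *Il1f9* passed it among the *Elk1*-/-*Elk4*-/- libraries of the comparison only through those with LPS. The same holds for its difference from TPL2 D270A cells below.

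Against TPL2 D270A cells the response was higher at *Adamts4* (1.94), *Lif* (1.85), *Hcar2* (1.84), *Id3* (1.82), *Il23a* (1.42), *Fpr1* (1.41), *Il1f9* (1.23), *Serpinb2* (1.23), *Egr3* (1.20), *Klf2* (1.18), and *Kctd12* (1.12), and lower at *Olr1* (-1.19) and *Itgb8* (-1.12). Genotype and experiment cannot be told apart in these differences.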

How the results depend on the processing

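The 324 risen and 93 fallen genes became 325 and 93 with the replicate block, and the block left the differences at 5 higher and 16 lower than in WT and 11 higher and 2 lower than in TPL2 D270A cells. It changed no call of a named gene. The counts moved with the limit on size. At 1.5-fold, 575 genes rose and 357 fell, and the response was higher than in WT at 12, lower at 48, higher than in TPL2 D270A at 42, and lower at 12. With a limit of 0.693, the natural log of 2, 491 rose, 235 fell, 38 were lower than in WT, 28 higher than in TPL2 D270A, and 7 lower. By adjusted p alone 1976 rose and 1976 fell, 48 were higher and 112 lower than in WT, and 87 higher and 88 lower than in TPL2 D270A.

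Against WT replicates 4 to 6 only, 30 genes were lower, against 7 to 9 only, 7 were, and against TPL2 D270A replicates 1 to 3 only, 5 were. Leaving out 1 library at a time gave 321 to 335 risen and 89 to 102 fallen genes, 3 to 6 higher and 13 to 20 lower than in WT, and 11 to 13 higher and 1 to 4 lower than in TPL2 D270A. The count of genes higher than in WT was 3 without unstimulated *Elk1*-/-*Elk4*-/- replicate 4, 1 h replicate 3, or 1 h WT replicate 9. The count lower than in TPL2 D270A was 1 without unstimulated replicate 3, 1 h replicate 1, or 1 h TPL2 D270A replicate 1, and 4 without 1 h TPL2 D270A replicate 6.

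With a linear value of at least 50 required, *Il1f9*, *Arc*, *Fosl1*, and *Fjx1* were not tested, so the called response of *Il1f9* and the called differences at these genes have no value there. Where a named gene was tested, no called response lost its call under the alternatives run. Uncalled values near 0 changed sign. The Srf difference from WT was -5.292e-04 with median centring, -0.0237 against WT replicates 4 to 6, and -0.0184 to 0.0229 leaving out 1 library. The Il6 difference from WT was -0.49 against WT replicates 4 to 6 and -0.00287 to 0.29 leaving out 1 library. Leaving out 1 library, the Elk1 response was -0.0888 to 0.0334 and the Elk4 response -0.00583 to 0.11. The *Id3* difference from WT lost its call with all libraries of the series in the fit (1.04). The cause of these changes was not tested.

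The transformation behind the values is not named, so the limit of 1 is not a known fold of reads. The table holds no depth for each library, and low genes such as *Sele*, *Il6*, and *Il1f9* rest on values near the lower end of the table. No WT library belongs to the *Elk1*-/-*Elk4*-/- experiment. How reads were divided among *Bcl2a1a* and its copies, *Hspa1a* and *Hspa1b*, and the Zfp genes was not tested.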

Other observations

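Heat shock chaperones, a group chosen after its values were seen, held 3 risen genes among 13 tested (23.1%, against 2.73% of all genes), with none fallen and a median of 0.17. *Hspa1b*, an inducible HSP70, read 6.79, 6.70, 6.76 and 6.47 without LPS and 9.28, 9.45, 9.26 and 9.46 with LPS in *Elk1*-/-*Elk4*-/- cells, a rise of 2.68 ± 0.22 (SE, adjusted p = 1.20e-15) in limma. *Hspa1a*, its near-identical neighbour, rose by 2.52 ± 0.15 (SE, adjusted p = 5.84e-21), and the division of reads between the pair is uncertain. *Dnajb4*, an HSP40 co-chaperone, rose by 1.61 ± 0.13 (SE, adjusted p = 4.31e-16). In WT the 3 genes changed by 2.93, 2.42, and 1.63. None of the 13 had a called difference of the responses, where 0.135% of all genes tested were lower and 0.0421% higher.

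Other falls outside the Zfp group included *Rhov*, a small GTPase, at -1.57, *Bmf*, a proapoptotic BH3-only protein, at -1.38, and *Angptl4*, an inhibitor of lipoprotein lipase, at -1.28. They also included *Cnr2*, the cannabinoid receptor of immune cells, at -1.13, and the homeobox gene *Hhex* at -1.12. These 5 genes were chosen after their values were seen and are not a ranking. In WT they changed by -1.24, -1.78, -1.83, -1.51, and -1.37.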
